A study of Solanum lycopersicum with 9 samples.

Results

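Transcripts of 5 genes for gibberellin perception were followed across 9 guard cell libraries of tomato: the gibberellin receptors GID1a (Solyc01g098390), GID1b1 (Solyc09g074270) and GID1b2 (Solyc06g008870), the DELLA gene PROCERA (Solyc11g011260) and the F-box gene SLY1 (Solyc04g078390). They were chosen by identifier, and each matched 1 of the 23028 rows of the authors' deposited table. The deposited table pairs no names with identifiers, so the names used here come with the choice of identifiers and were not checked against an annotation. By the convention of these identifiers, GID1a lies on chromosome 1, GID1b1 on 9, GID1b2 on 6, PROCERA on 11 and SLY1 on 4. All 5 genes passed the filter on low values.

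Gibberellin is sensed by soluble GID1 proteins, which bind the hormone and then a DELLA protein. A DELLA protein sits in the nucleus and holds back gibberellin responses. An SCF ubiquitin ligase, whose F-box subunit is SLY1 in Arabidopsis, marks the DELLA protein held by GID1 for breakdown. In Arabidopsis, DELLA proteins are also known to raise transcripts of gibberellin receptors and of gibberellin-producing oxidases.

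The tested lines were pro∆17, which expresses a DELLA gain of function, and pro, a DELLA loss-of-function mutant, and both were set against the cultivar M82. The strain of all 9 libraries is labelled M82, and all plants were grown in 1 growth room regime. Guard cells, the epidermal cells that open and close stomata, were obtained as epidermal peels left on a mesh after leaves without veins had been blended. Each group had 3 libraries of poly A RNA, and nothing in the labels says that these were separate plants. The p-values therefore reflect only how these samples scatter, part of which may be technical. The labels give no promoter for pro∆17, no number of independent lines and no age. In such preparations fewer cells of a type and less RNA per cell cannot be told apart.

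Between 14826561 and 20445679 reads per library were assigned to genes. The pro libraries varied most, with a median SD over genes of 0.14 in pro∆17, 0.36 in pro and 0.21 in M82 on the log2 scale. A locus listed from general knowledge as a dehydrin, a protein of drying tissue, stood at 35710 normalized counts in pro library 3 and at 7.91 to 331 in the other 8 libraries. The summed level of 14 loci listed as mesophyll photosynthesis genes was 349492 to 385169 in pro∆17, 160610 (library 3) to 533620 (library 2) in pro and 339363 to 456579 in M82, with none at 0 in any library. The sum of 7 loci listed as guard cell or stomatal lineage genes was 5428 to 5831 in pro∆17, 4805 to 6754 in pro and 5275 to 6380 in M82, and none was at 0. The identity of the listed loci was not checked against an annotation, and their part in the results was not tested.

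In every pro∆17 library both GID1b receptor genes stood above every library of the other groups, while GID1a overlapped. The mean of GID1b1 in pro∆17 was 3.17 times that of pro and 2.16 times that of M82, and the mean of GID1b2 was 3.18 times that of pro and 2.17 times that of M82. The shares of the 3 receptor genes in the receptor reads did not overlap between any of the groups. PROCERA was also highest in pro∆17, at 1.65 times pro and 1.61 times M82. Neither PROCERA nor SLY1 passed limma's test of 9 libraries after adjustment over all genes. In that fit both GID1b genes passed for pro∆17 against pro. Against M82 neither did (limma adjusted p = 0.136 for GID1b2 and 0.368 for GID1b1).

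GID1b2, a gibberellin receptor gene, had normalized counts of 667, 565 and 665 in pro∆17 libraries 1 to 3. It had 195, 137 and 263 in pro and 283, 273 and 319 in M82. The 3 groups did not overlap, in the order pro∆17, M82, pro. The means were 632 ± 58.1 in pro∆17, 199 ± 63.1 in pro and 292 ± 24.4 in M82 (SD, n = 3). The rise in pro∆17 over pro passed limma's test (log2 fold change 1.71 ± 0.22 SE, 95% interval 1.22 to 2.21, Benjamini-Hochberg adjusted p = 0.00521). It passed under all 18 alternatives, with adjusted p up to 0.0386, and its fold change stood at percentile 98.1 of all genes tested. Against M82 the log2 fold change of pro∆17 was 1.11 ± 0.22 (interval 0.62 to 1.61), which did not pass over all genes with limma (adjusted p = 0.136). That of pro against M82 was -0.60 ± 0.22 (interval -1.09 to -0.10, limma adjusted p = 0.667), although no pro library reached the lowest M82 library. With 1 library left out, this estimate ran from -0.83 to -0.36, the latter without pro library 2.

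GID1b1, the paralog, had normalized counts of 444, 406 and 416 in pro∆17 libraries 1 to 3, 144, 64.2 and 192 in pro, and 208, 184 and 194 in M82. All pro∆17 libraries lay above all others, while pro library 3 lay between M82 libraries 2 and 3. The means were 422 ± 19.7 in pro∆17, 133 ± 64.4 in pro and 195 ± 11.8 in M82 (SD, n = 3). The lowest value, in pro library 2, came from 65 reads (95% exact Poisson interval 50.2 to 82.8, counting error only). GID1b1 rose in pro∆17 over pro (limma log2 fold change 1.79 ± 0.34 SE, interval 1.03 to 2.55, adjusted p = 0.0264). This call was lost in a fit of the pro∆17 and pro libraries alone (adjusted p = 0.0891) and without M82 library 2, pro library 1 or any pro∆17 library (limma adjusted p from 0.0540 to 0.118). Against M82 the log2 fold change of pro∆17 was 1.11 ± 0.34 (interval 0.35 to 1.87, limma adjusted p = 0.368), and that of pro was -0.68 ± 0.34 (interval -1.44 to 0.08, adjusted p = 0.712).

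Fitted without the pro libraries, both GID1b genes passed for pro∆17 against M82 at the same fold changes, with limma adjusted p = 0.00537 for GID1b2 and 0.00506 for GID1b1. In that fit 2.08% of all genes passed, against 0.119% in the fit of 9 libraries, where the spread of the pro libraries enters every comparison. DESeq2 on the recovered reads called GID1b2 (adjusted p = 8.30e-04) but not GID1b1 (adjusted p = 0.0584), with 1.56% of genes called. Limma also called GID1b2 when pro library 2 or pro library 3 was left out (adjusted p = 0.0264 and 0.0218), and GID1b1 without pro library 2 (adjusted p = 0.0233). These fits called 0.42% of all genes without pro library 2 and 0.95% without pro library 3. No other limma fit with 1 library left out called either gene, with adjusted p up to 0.564 for GID1b2 and 0.931 for GID1b1. The spread of GID1b1 in pro∆17, a coefficient of variation of 4.66%, was no wider than its counting error of 4.92%, while in pro it was 48.3% against 9.49%.

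The GID1b genes kept nearly the same ratio to each other in most libraries. GID1b1 stood at 67.0 ± 4.64 per 100 of GID1b2 in pro∆17, 64.5 ± 15.3 in pro and 67.2 ± 6.36 in M82, as ratios of normalized counts not corrected for length (SD, n = 3). Pro library 2 was lowest at 46.8, and the other 8 libraries lay between 60.7 and 73.8. Over the 9 libraries their log2 levels had a Pearson r of 0.98, as a description of libraries that fall into 3 groups. As near-identical stretches of paralogs cannot be told apart in short reads, how multiply aligned reads were treated could bear on both levels, and this is not given in the sources used here.

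**Figure D1:**
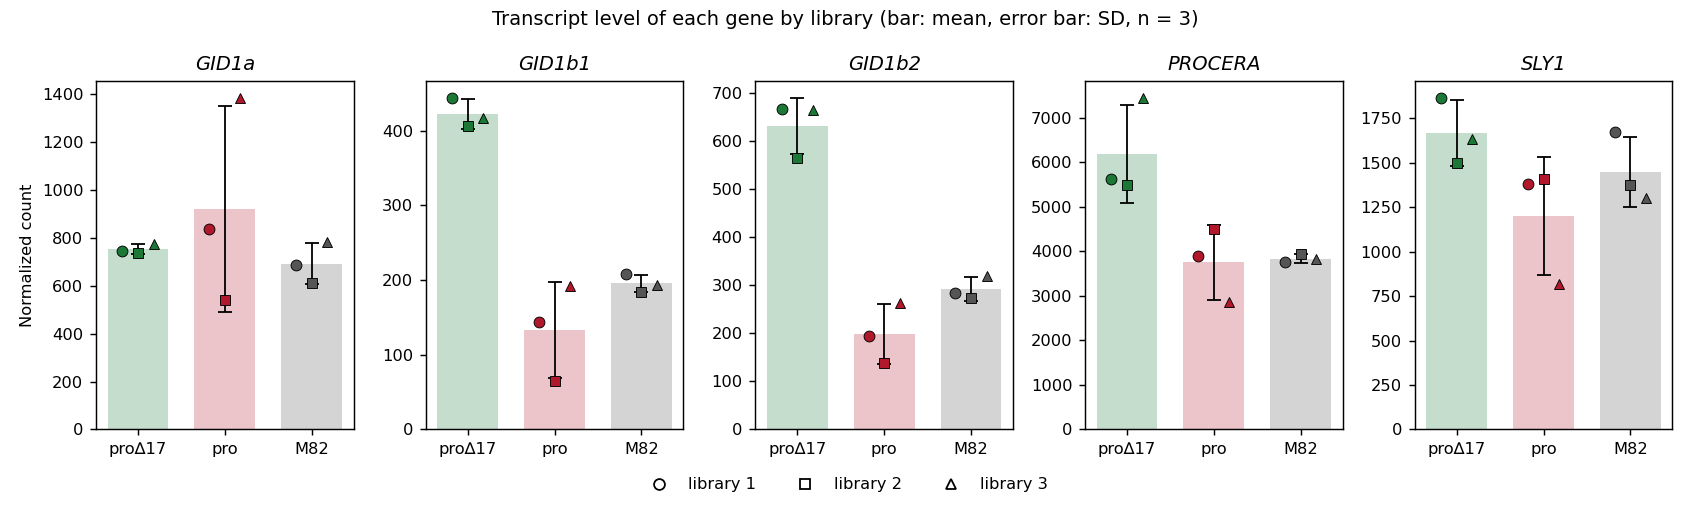
Normalized counts of the 5 genes (vertical axes from 0, 1 scale per gene) in pro∆17, pro and M82; points are single libraries, bars the mean and error bars the SD of 3 libraries. GID1b1 and GID1b2 lie at 406 to 444 and 565 to 667 in pro∆17, above every other library, while GID1a in pro spans 540 to 1385.

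GID1a, the remaining gibberellin receptor gene, had normalized counts of 746, 735 and 776 in pro∆17, 836, 540 and 1385 in pro, and 684, 612 and 781 in M82. The groups overlapped in every comparison. The means were 752 ± 21.2 in pro∆17, 920 ± 429 in pro and 692 ± 84.4 in M82 (SD, n = 3), and the highest pro library stood 2.57 times above the lowest. No comparison passed limma's test. Its estimate on the log2 scale was -0.18 for pro∆17 against pro (interval -0.83 to 0.46, adjusted p = 0.760) and 0.13 for pro∆17 against M82 (interval -0.52 to 0.77, adjusted p = 0.9998). For pro against M82 it was 0.31 (interval -0.33 to 0.96, adjusted p = 0.737). Pro library 3, in which the dehydrin locus stood highest and the photosynthesis loci lowest, set the sign of both estimates that include pro: without it, limma gave -0.036 for pro against M82 and 0.16 for pro∆17 against pro.

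Within each library, the share of GID1 receptor reads that came from GID1a separated the groups. It was 40.2%, 43.1% and 41.8% in pro∆17 libraries 1 to 3, 71.2%, 72.8% and 75.3% in pro, and 58.2%, 57.2% and 60.3% in M82. The lowest pro library lay above every M82 library, and the lowest M82 library above every pro∆17 library. The share averaged 41.7% ± 1.45 in pro∆17, 73.1% ± 2.06 in pro and 58.6% ± 1.58 in M82 (SD, n = 3). Each library's share rests on 750 to 2053 GID1 reads. The 95% Wilson intervals, which cover counting error only, reached from 38.0% to 45.3% in pro∆17, from 68.5% to 77.1% in pro and from 54.3% to 62.9% in M82, so they did not overlap between groups either. This share does not depend on the scaling between libraries, and it is not corrected for transcript length.

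The 3 shares make up the whole of the GID1 reads in each library, so they are not independent of each other. A lower GID1a share must go with a higher share of the GID1b genes together. The shares of GID1b1 and GID1b2 each moved the other way from that of GID1a. GID1b1 held 23.4% ± 0.834 of GID1 reads in pro∆17, 10.4% ± 1.79 in pro and 16.6% ± 1.45 in M82. GID1b2 held 34.9% ± 1.58 in pro∆17, 16.5% ± 2.11 in pro and 24.8% ± 0.705 in M82 (SD, n = 3). For each of the 3 receptors, the groups did not overlap in any of the 3 comparisons, which share samples. How often the read shares of other sets of genes separate in this way was not computed. The two-sided exact permutation test gave p = 0.1 in all 9 tests (Benjamini-Hochberg adjusted p = 0.1), the smallest that 3 against 3 libraries allow, so none can pass 0.05. Leaving out any 1 library kept the difference in GID1a share between -32.3 and -30.3 percentage points for pro∆17 minus pro, between -17.6 and -16.05 for pro∆17 minus M82, and between 13.4 and 15.4 for pro minus M82. The summed GID1 level was 1857, 1706 and 1857 in pro∆17 libraries 1 to 3, 1175, 741 and 1840 in pro, and 1176, 1070 and 1294 in M82. All 3 receptor genes were highest in library 3 and lowest in library 2 among the pro libraries.

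**Figure D2:**
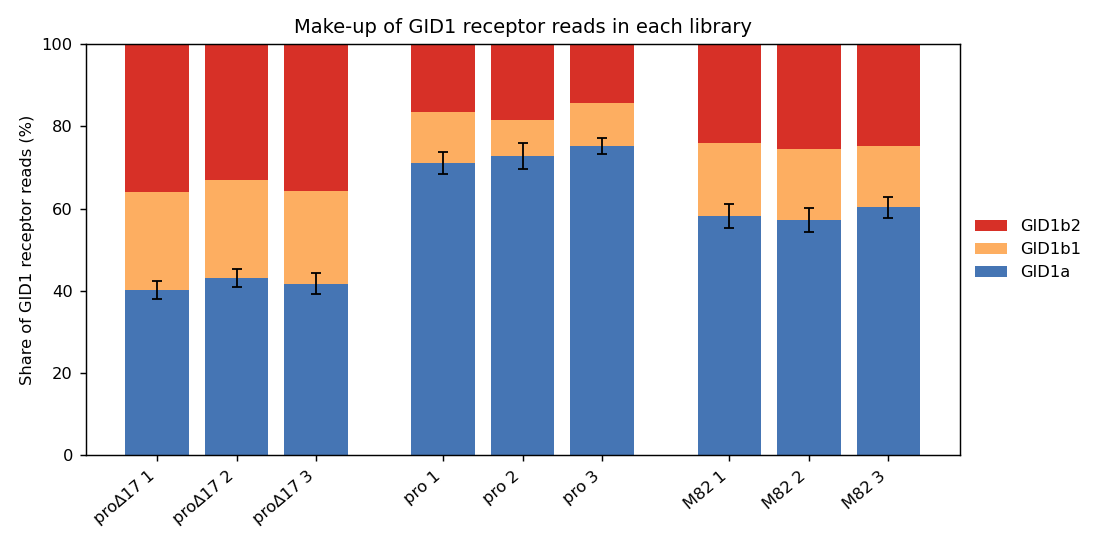
Share of GID1 receptor reads (vertical axis, %) from GID1a, GID1b1 and GID1b2 in each of 9 libraries (horizontal axis); error bars are 95% Wilson intervals of the GID1a share. GID1a holds 40.2% to 43.1% in pro∆17, 71.2% to 75.3% in pro and 57.2% to 60.3% in M82.

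**Figure D3:**
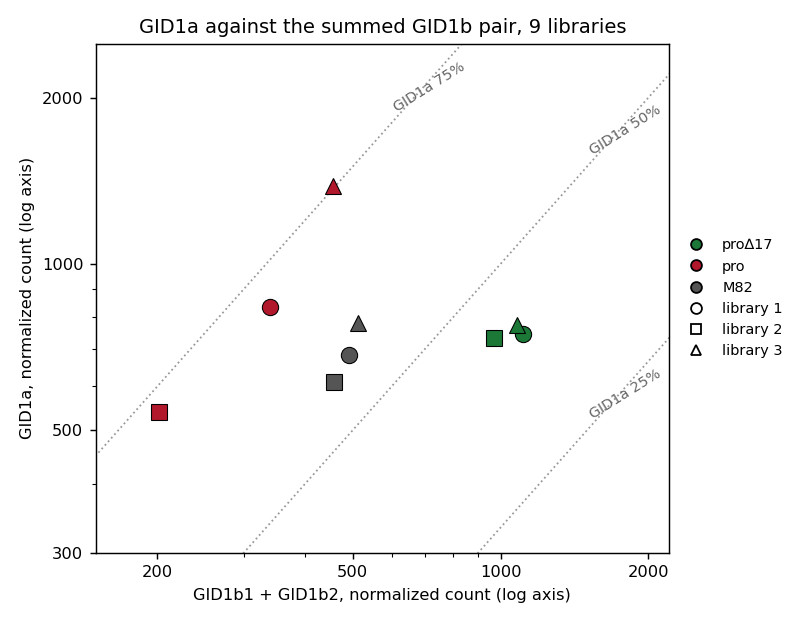
Normalized count of GID1a (vertical log axis) against that of GID1b1 and GID1b2 summed (horizontal log axis), 1 point per library; dotted lines mark where GID1a is the labelled share of the sum of the 3 receptors. The pro libraries lie near the line labelled 75%, from a GID1b sum of 202 to 455, while the pro∆17 libraries sit together at 971 to 1111.

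PROCERA, the DELLA gene altered in these lines, had normalized counts of 5628, 5486 and 7448 in pro∆17, 3892, 4507 and 2851 in pro, and 3754, 3934 and 3824 in M82. All pro∆17 libraries lay above all others, and pro and M82 overlapped. Pro library 3 was the lowest of the 9. The ratio of means was 1.65 for pro∆17 over pro and 1.61 for pro∆17 over M82, and neither passed limma's test in the fit of 9 libraries. The 95% intervals of the log2 fold changes were 0.30 to 1.17 (adjusted p = 0.0772) and 0.24 to 1.11 (adjusted p = 0.325). For pro against M82 the interval was -0.49 to 0.37 (limma adjusted p = 0.918), and the estimate of -0.058 became 0.13 without pro library 3. The call against pro was made by DESeq2 (adjusted p = 0.00996, with 8.83% of all genes called). Limma without pro library 2 also made it (adjusted p = 0.0188, with 15.3% of all genes called). The call against M82 was made by limma on the 6 libraries alone (adjusted p = 0.0434, with 2.08% of all genes called). Where reads of the pro∆17 form count at this locus, they are part of its level, and their share was not tested. A transcript level does not report how much DELLA protein is present or active, so it does not check the label of pro.

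SLY1, the gene of the F-box protein that marks DELLA for breakdown, had normalized counts of 1866, 1501 and 1631 in pro∆17, 1379, 1407 and 818 in pro, and 1671, 1373 and 1304 in M82. The pro∆17 libraries lay above those of pro and overlapped with M82, and pro overlapped with M82. The means were 1666 ± 185 in pro∆17, 1202 ± 332 in pro and 1449 ± 195 in M82 (SD, n = 3). The log2 fold change of pro∆17 against pro was 0.51 (interval 0.02 to 0.99) and did not pass over all genes with limma (adjusted p = 0.253), and without pro library 3 it was 0.25. Against M82 it was 0.20 in pro∆17 (interval -0.28 to 0.69, adjusted p = 0.967) and -0.30 in pro (interval -0.79 to 0.18, limma adjusted p = 0.723). Pro library 3 again held the lowest value of the 9, while GID1a was at its highest there.

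Set against PROCERA in the same library, the summed receptors overlapped between groups. The 3 receptor genes together stood at 32.99, 31.1 and 24.9 per 100 of PROCERA in pro∆17, 30.2, 16.4 and 64.5 in pro, and 31.3, 27.2 and 33.8 in M82, as ratios of normalized counts not corrected for length. The groups overlapped, and the pro libraries alone covered the whole range. GID1a by itself stood at 10.4 to 13.4 per 100 of PROCERA in pro∆17, 12.0 to 48.6 in pro and 15.6 to 20.4 in M82, so pro∆17 lay below M82 without overlap. The GID1b pair stood at 14.5 to 19.7 in pro∆17, 4.47 to 15.97 in pro and 11.6 to 13.4 in M82, so pro∆17 lay above M82 without overlap. SLY1 stood at 21.9 to 33.2 per 100 of PROCERA in pro∆17, 28.7 to 35.4 in pro and 34.1 to 44.5 in M82, again without overlap between pro∆17 and M82. PROCERA itself was higher in pro∆17 than in M82 without overlap, while the counts of GID1a and SLY1 overlapped between these groups. Their lower ratios in pro∆17 are therefore no result separate from the level of PROCERA. How many of all genes separate in this way was not computed.

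Over the 5 genes, 2 of 5 passed for pro∆17 against pro, both higher in pro∆17, where 3.4% of the 20951 genes tested passed and 2.19% passed as higher. For pro∆17 against M82, 0 of 5 passed with limma or with edgeR (0.119% of all genes with limma), 3 of 5 had an unadjusted limma p under 0.05 (7.79% of all genes), and DESeq2 called 1 (1.56% of all genes). With pro∆17 against pro, DESeq2 called 3 of 5 (8.83% of all genes) and limma on those 6 libraries 1 of 5 (1.3% of all genes). For pro against M82, 0 of 5 passed with limma, edgeR or DESeq2 (0.21% of all genes with limma, 0.873% with DESeq2) or with limma on those 6 libraries (0.11%), and 1 of 5 had an unadjusted limma p under 0.05 (6.83% of all genes). By the libraries themselves, 4 of 5 genes were higher in pro∆17 than in pro without overlap, against 11.7% of all genes higher and 22.9% in either direction. Likewise 3 of 5 were higher in pro∆17 than in M82 without overlap, against 10.5% of all genes higher and 21.1% in either direction. GID1b2 alone, 1 of 5, was lower in pro than in M82 without overlap, against 4.57% of all genes lower and 9.01% in either direction. The median log2 fold change of the 5 genes was 0.73 for pro∆17 against pro, 0.68 for pro∆17 against M82 and -0.30 for pro against M82, while that of all genes lay within 0.01 of 0 in each. The 3 comparisons share samples, so their values are not independent of each other. The 5 genes were chosen with earlier results of these data known, so setting them against all genes is a description only.

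**Figure D4:**
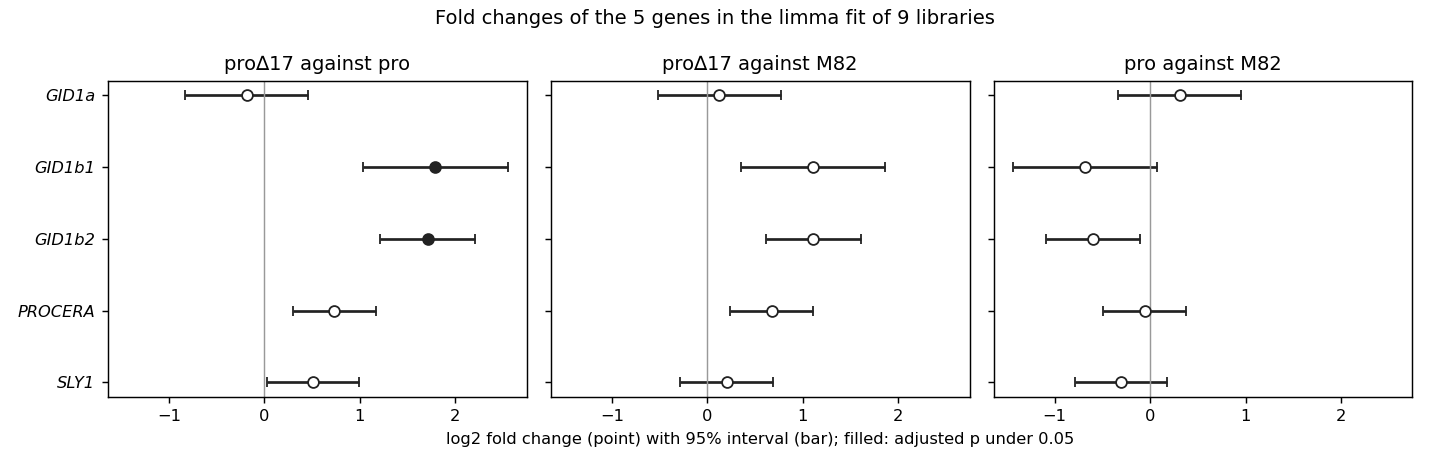
Log2 fold change (horizontal axis) of each gene in the 3 comparisons, from limma's fit of 9 libraries; bars are 95% intervals not adjusted for the number of genes, and filled points passed an adjusted p of 0.05. The filled points are GID1b1 at 1.79 and GID1b2 at 1.71 in pro∆17 against pro.

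**Figure D5:**
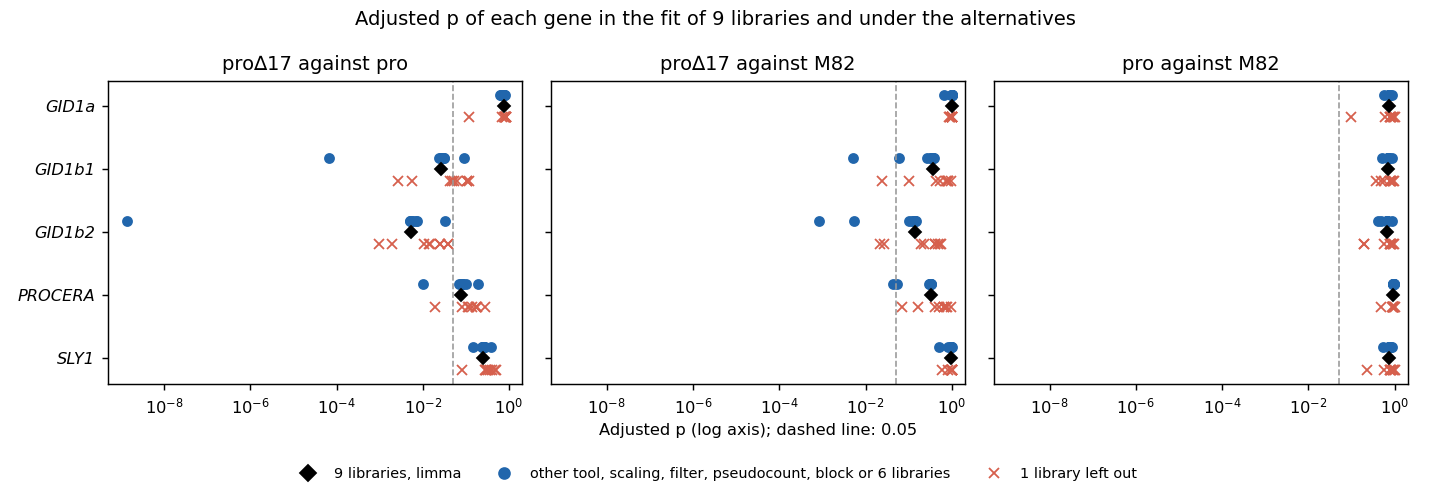
Adjusted p (horizontal log axis) of each gene in the 3 comparisons, for the fit of 9 libraries and for the 18 alternatives; the dashed line is at 0.05. All points of GID1b2 in pro∆17 against pro lie at or below 0.0386, and no point of any gene lies below 0.05 in pro against M82.

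Other loci of the pathway, listed from general knowledge and not checked against an annotation, were counted beside the 5 genes. Of 6 loci listed as gibberellin-producing oxidases, 5 were in the table and 4 were tested. In pro∆17 against pro, 2 of these 4 rose and 0 fell with limma, where 3.4% of all genes passed, with a median log2 fold change of 3.33. In pro∆17 against M82 and in pro against M82, 0 of 4 passed with limma, with medians of 1.5015 for pro∆17 against M82 and -1.56 for pro against M82. The loci ran from 1.15 to 3.96 for pro∆17 against M82, but went both ways for pro against M82, from -2.19 to 0.67. EdgeR called 0 in both comparisons. In pro∆17 against M82, DESeq2 called 1 (1.56% of all genes) and 3 loci had an unadjusted limma p under 0.05 (7.79% of all genes). In pro against M82, DESeq2 called 2 (0.873% of all genes) and 2 loci had an unadjusted limma p under 0.05 (6.83% of all genes). These shares of all genes also apply to the lists that follow, as do 8.83% called by DESeq2 and 18.1% at an unadjusted limma p under 0.05 in pro∆17 against pro. The summed level of the 5 was 2154 to 2298 in pro∆17, 121 to 383 in pro and 647 to 1076 in M82, with no overlap between groups, the order also seen for GID1b2. The median of the 5 was 121 to 135 in the pro∆17 libraries, so the loci above it made up most of the sum there. Of 5 tested loci listed as gibberellin-inactivating oxidases, 1 fell in pro∆17 against pro and 0 passed in the other comparisons with limma or edgeR, where 1 each had an unadjusted limma p under 0.05 and DESeq2 called 1 in pro against M82. The list had medians of -0.88 for pro∆17 against pro, -0.42 for pro∆17 against M82 and 0.46 for pro against M82. Its loci went both ways, from -2.43 to 1.12 for pro∆17 against pro and from -1.48 to 0.96 for pro∆17 against M82. Its summed level overlapped between groups, at 773 to 1455 in pro∆17, 665 to 1052 in pro and 352 to 1145 in M82. Of 3 tested loci listed for the early steps of gibberellin synthesis, 0 passed in any comparison with limma or edgeR, DESeq2 called 1 in pro∆17 against pro, and at most 1 had an unadjusted limma p under 0.05. The medians of this list were -0.28 for pro∆17 against pro, 0.057 for pro∆17 against M82 and 0.17 for pro against M82. Its summed level was lowest in pro∆17, at 1198 to 1467, against 1538 to 2785 in pro and 1642 to 1899 in M82.

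The genes whose levels followed each of the 5 most closely were found by Pearson r of log2 normalized counts over the 9 libraries, among 16913 genes with a mean of at least 50. GID1b2 was followed by Solyc09g082730.4 and Solyc05g056370.3 (r = 0.99 each), with means of 4938 and 8365 in pro∆17, 2521 and 3422 in pro and 3017 and 4415 in M82. GID1b1 was followed by Solyc04g077010.3 and Solyc09g074550.3 (r = 0.98 each). For GID1a these were Solyc01g065495.1 and Solyc01g079170.3 (r = 0.99 each), for SLY1 Solyc05g006520.3 and Solyc11g012200.2 (r = 0.99 each), and for PROCERA Solyc08g077850.2 and Solyc02g089360.3 (r = 0.95 each). An r above 0.9 was reached by 835 genes with GID1a, 91 with GID1b1, 140 with GID1b2, 42 with PROCERA and 242 with SLY1. With 9 libraries in 3 groups, and with pro library 3 apart from the rest, these values describe likeness only.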

How the data were processed

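For each gene and library the authors deposited a signal value, called normalized counts per the file headers. The submitters' processing notes name cutadapt, HTSeq, STAR 2.4.2a and DESeq2. Genome build, annotation release and strand setting were not given in the sources used here, so reads of overlapping and antisense genes cannot be told apart. In each library 100.0% of values were whole multiples of 1 step (tolerance 0.006), which gave back whole reads. Log2 fold changes and p-values that the authors deposited appear only in the closing observations.

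The test was limma (version 3.58.1, under R 4.3.3) with its trend option, on log2 of the normalized count plus a pseudocount of 1, on 20951 genes that passed edgeR's filter (2077 left out), with 9 libraries and 3 groups in 1 fit, two-sided, adjusted by Benjamini-Hochberg, with a threshold of 0.05. Limma's log2 fold changes are on this scale, where the pseudocount by itself understates the change of low genes. They compare means of log2 values, while ratios of means are of the normalized counts themselves. For GID1b1 in pro∆17 against pro, limma gave 1.79 and the log2 ratio of means was 1.66. Alternatives were edgeR 4.0.16 and DESeq2 1.42.0 on the recovered reads, other scalings, pseudocounts of 0.1 and 5, no filter, the 6 libraries compared, a replicate block, and each library left out. The fits were tested on simulated data. Wilson and Poisson intervals came from scipy 1.17.1. Shares were compared by exact permutation; no p is given for the summed receptors over PROCERA.

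Groups and replicate numbers came from the description label; the titles of pro∆17 libraries 2 and 3 carry other numbers after the delta sign. Same-numbered M82 and pro libraries deviated together (r of 0.13 to 0.52 across genes), which met the rule that every r exceeds 0.1. The other pairs of groups did not meet it. M82 library 1 was closer to pro library 2 (r of 0.26) than to pro library 1 (r of 0.13), so the numbers are not an established pairing. The 5 genes and the lists were chosen with earlier results of these data known. The genes named were the 5 and, for each, the 2 most alike in level over the libraries. No sequences are shown. RefSeq's table (assembly SLM_r2.1) pairs no symbol with these identifiers.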

Additional observations from a re-analysis of the deposited data

How the results depend on the processing

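For pro∆17 against pro, 2 of the 5 genes passed in limma's fit of 9 libraries, 1 with only the 6 libraries compared and 1 to 3 with 1 library left out. For pro∆17 against M82, 0 passed in the fit of 9 libraries, 1 with DESeq2, 3 with the 6 libraries compared and 0 to 2 with 1 library left out. For pro against M82, 0 passed under each of the 18 alternatives. Among log2 fold changes of single genes, 3 changed sign, each without pro library 3. With 1 library left out, log2 fold changes of pro against M82 ran from -0.036 to 0.64 for GID1a and from -0.20 to 0.13 for PROCERA, and that of GID1a in pro∆17 against pro from -0.52 to 0.16, and none of these passed. Of the other single-gene values under alternatives, 252 kept direction and side of the threshold, 9 newly passed and 6 no longer passed, all 6 of them GID1b1 in pro∆17 against pro.

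Over all genes, 712 passed for pro∆17 against pro, 1850 with DESeq2, 273 with the 6 libraries compared and 161 to 3196 with 1 library left out. For pro∆17 against M82, 25 passed, 327 with DESeq2, 41 with a pseudocount of 5, 436 with the 6 libraries compared, 12 with the replicate block and 1 to 199 with 1 library left out. For pro against M82, 44 passed, 183 with DESeq2, 23 with the 6 libraries compared and 25 to 766 with 1 library left out. The cause was not tested. The replicate block changed no call of the 5 genes. The shares of GID1 reads moved by less than the spread between replicates with any 1 library left out. So did the log2 ratio of summed receptors to PROCERA, but its differences, near 0, changed sign in each comparison, running from -0.58 to 0.40 for pro∆17 minus pro, from -0.14 to 0.063 for pro∆17 minus M82 and from -0.46 to 0.53 for pro minus M82. Depth limits GID1b1 most, with 65 to 463 reads per library.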

Other observations

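In the authors' deposited table, the log2 fold change listed for GID1b2 in pro∆17 against M82 is 1.67 (adjusted p = 0.00305 there), while the deposited normalized counts of the same row give a log2 ratio of means of 1.12. The authors' deposited table lists 1.669 for pro∆17 against pro and -0.554 for pro against M82 in that row, values within 0.01 of the ratios of its normalized counts. For the other values of the 5 genes, the authors' deposited table and the log2 ratio of mean normalized counts differ by at most 0.002. Over the whole table, in 240 of 23028 rows (1.042%) the authors' deposited log2 fold change of pro∆17 against M82 differs by more than 0.1 from the sum of the other comparisons.

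Genes called in the authors' deposited table (adjusted p under 0.05 there) were split into higher and lower by the log2 ratio of their mean normalized counts. The fold change listed there did not enter this split. Of 166 called genes higher in pro∆17 than M82 by that ratio, 75 have a listed log2 fold change more than 0.1 from it. Of 140 called genes that were lower, 74 do. For pro against M82, 42 of 58 called genes that were higher and 63 of 109 that were lower do, with gaps of up to 12.6. Once both columns are sorted by size, the values of called genes lower in pro∆17 than M82 differ by at most 0.0531 from the ratios. Row by row they differ by up to 2.91. Sorting leaves gaps of up to 5.06 for those higher in pro∆17 than M82, and of up to 12.5 for higher and 4.38 for lower in pro against M82. For pro∆17 against pro, 0 of 912 called genes that were higher and 6 of 863 that were lower lie more than 0.1 from their ratio. One p-value cell of the authors' deposited table, for pro∆17 against M82, holds a value above 1. The fold changes given here for GID1b2 rest on the normalized counts and not on those cells.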
